A study of Mus musculus with 768 samples.

Results

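Axon guidance genes were examined in single mesenchymal cells of mouse mammary tumors. The members were chosen by gene symbol alone and comprise the semaphorins of classes 3 to 7, the plexins, the ephrins and their Eph receptors, the Slits and Robos, the netrins and the Unc5 receptors. The rule took 67 of the 24490 endogenous genes in the tables, namely 20 semaphorins, 10 plexins, 8 ephrins, 14 Eph receptors, 3 Slits, 4 Robos, 4 netrins and 4 Unc5 receptors. One of the plexin entries, Plxna4os1, is an antisense transcript.

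These proteins were first described as cues that attract or repel growing axons, and they act in many other tissues as signals between neighboring cells. Semaphorins bind plexins, those of class 3 usually through a neuropilin co-receptor. Ephrins are anchored to the cell surface and bind Eph receptor tyrosine kinases on adjacent cells, whereas Slits bind Robos, and netrins bind Dcc, neogenin and the Unc5 receptors. In the vasculature, members of each of these systems take part in vessel sprouting and in the contact between mural cells and endothelium.

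The study sorted 768 single cells into wells of 2 plates, each plate from the mammary tumor of 1 mouse. Both mice were 14-week-old FVB/N-Tg(MMTVPyVT)634Mul/J animals, in which the mammary tumor virus promoter drives the polyoma middle T oncogene in the mammary epithelium. The cells were live and negative for EpCAM, CD45, CD31 and NG2, so epithelial, immune and endothelial cells and NG2-positive pericytes were selected against, and they were sequenced with Smart-seq2, a full-length protocol without molecular identifiers. There was no untreated or normal group. The tumor is the replicate here (n = 2), and tumor and plate cannot be told apart.

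A total of 727 wells held at least 10000 reads from genes other than the ERCC spike-ins, which are RNAs of known amount added to each well, and the other 41 wells were left out. Wells were called Dcn-high where decorin, a matrix proteoglycan, reached log2(RPKM + 1) of 6 and exceeded Rgs5 by 3 log2 units. Rgs5-high wells met the reverse rule for Rgs5, a regulator of G protein signaling that marks mural cells. RPKM are reads scaled for the length of the gene model and for the mapped reads of the well. The rule gave 167 Dcn-high wells (83 in tumor 1 and 84 in tumor 2), 494 Rgs5-high wells (257 and 237) and 66 wells of neither class (33 and 33). Of all wells used, 35 lay within 1 log2 unit of a margin. Panels of 10 other markers for each class put 153 of the 167 Dcn-high wells and 491 of the 494 Rgs5-high wells in the same class, and 0 in the opposite class. The panels include genes that the study named for its vascular and matrix cells on these samples (among them Notch3, Kcnj8, Lum and Fbln1), so they are not independent evidence.

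Median depth was 278273 and 232394 reads in the Dcn-high wells of tumors 1 and 2, against 203289 and 191070 in the Rgs5-high wells. The median ERCC share was 6.22% in the Dcn-high wells of both tumors and 14.3% and 12.4% in the Rgs5-high wells. Of 10 endothelial markers, Cdh5 and Sox17 had no read in either class and Pecam1 none in the Rgs5-high wells. The list nevertheless summed to 69.8 and 126 RPKM in the Rgs5-high wells against 7.59 and 7.21 RPKM in the Dcn-high wells, and Emcn alone gave 64.6 and 122.6 RPKM of the former. The 10 immune markers summed to 28.8 and 8.77 RPKM in Dcn-high wells and to 2.95 and 14.0 RPKM in Rgs5-high wells, and the part of these levels in the results that follow was not tested. The wells are the cells of 2 animals and are described, not tested, as single cells.

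Of the 67 members, 62 had a read in at least 1 well used. Epha5, Epha6, Epha8, Robo4 and Plxna4os1 had no read in any of the 768 wells. Cells that express such a gene at a low level can give no read, so these zeros set no limit on expression. Robo4 is known from endothelium, and Epha5, Epha6 and Epha8 are best known from neurons. A read was found in at least 10% of the wells of both tumors for 28 members, and in at least 50% for 8, namely Plxna1, Plxnb2, Plxnd1, Robo1, Sema5a, Sema6d, Slit3 and Unc5b. Of these 8, 5 are receptors and 3 (Sema5a, Sema6d and Slit3) are ligands.

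Another 21 members were read but averaged less than 1 RPKM over the wells used. They were read in between 1 well (Robo3 and Unc5d) and 60 wells (Sema6c). Sema6b and Sema6c, transmembrane semaphorins, were read in 59 and 60 wells. Epha7 was read in 26 and 16 Dcn-high wells and in 2 and 1 Rgs5-high wells, and Plxnc1, the plexin that binds Sema7a, in 6 and 4 against 0 and 1. Sema6b was read in 9 and 4 Dcn-high wells and in 19 and 27 Rgs5-high wells, with no common direction in the tumors as a share of wells. There were 494 Rgs5-high and 167 Dcn-high wells, so these counts of wells are no measure of level.

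More members were read per well in the Dcn-high class, whose wells held more genes of any kind, with medians of 5652 and 5534 genes against 4056 and 4176 in the Rgs5-high wells. The mean was 17.5 and 16.2 members in the Dcn-high wells of tumors 1 and 2 and 10.2 and 10.5 in the Rgs5-high wells. Thinned to 50000 reads, with shallower wells left out (79 and 80 Dcn-high and 250 and 223 Rgs5-high wells remained), the means were 14.5 and 13.5 against 8.81 and 9.05, so the order of the member counts held at equal depth. The number of genes of any kind was not thinned, so its part in this difference was not tested. The family values that follow are at full depth. The difference lay in some families and not in others. Eph receptors averaged 3.31 and 2.87 members in a Dcn-high well and 1.11 and 1.02 in an Rgs5-high well, whereas plexins averaged 2.45 and 2.62 against 2.73 and 2.85. Summed over members, the Slits reached 104 and 94.3 RPKM in Dcn-high wells and 20.6 and 18.7 RPKM in Rgs5-high wells. The semaphorins summed to 74.6 and 60.1 RPKM in the Dcn-high wells and to 104 and 119 RPKM in the Rgs5-high wells.

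To ask how the genes part the matrix from the vascular cells, reads were summed over the wells of each class and tumor into 4 libraries and tested with edgeR's quasi-likelihood test, with p-values adjusted over all 11715 genes that averaged at least 1 RPKM. Fold changes are given as Dcn-high minus Rgs5-high on the log2 scale. Of the 41 members tested, 18 were called at an adjusted p of 0.05, 14 of them higher in Dcn-high wells and 4 higher in Rgs5-high wells. Over all genes tested the share called was 16.5%, with 9.79% higher in Dcn-high wells and 6.71% higher in Rgs5-high wells. The median fold change was 0.73 over the tested members and -0.03 over all genes. These counts describe the members that passed the filter on level. Of the 14 called higher in Dcn-high wells, 13 averaged under 1 RPKM in the Rgs5-high wells of both tumors, and of the 4 called in the other direction 2 (Sema5b and Plxnb1) averaged under 1 RPKM in the Dcn-high wells, so many passed through the class in which they were high.

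With ERCC totals in place of the library sizes, an alternative chosen after the difference in ERCC share was seen, 24 members were called higher in Dcn-high wells and 3 in Rgs5-high wells, and the median fold change of all genes moved from -0.03 to 0.65. In that fit 3531 of the 11715 genes were called higher in Dcn-high wells and 522 higher in Rgs5-high wells, against 1147 and 786 in the main fit. The fold changes reported are therefore relative to the bulk of the transcriptome. Under each of 13 alternative fits the 18 called members kept their sign, and 14 of them were called in every fit. Since the 2 classes come from the same animals, the fit with the tumor as a replicate block was also run, and it changed the call of 1 member, Epha3. By family, 8 of 13 semaphorins, 1 of 5 plexins, 1 of 6 ephrins, 2 of 7 Eph receptors, both tested Slits, 1 of 2 Robos, 1 of 3 netrins and 2 of 3 Unc5 receptors were called.

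**Figure D1:**
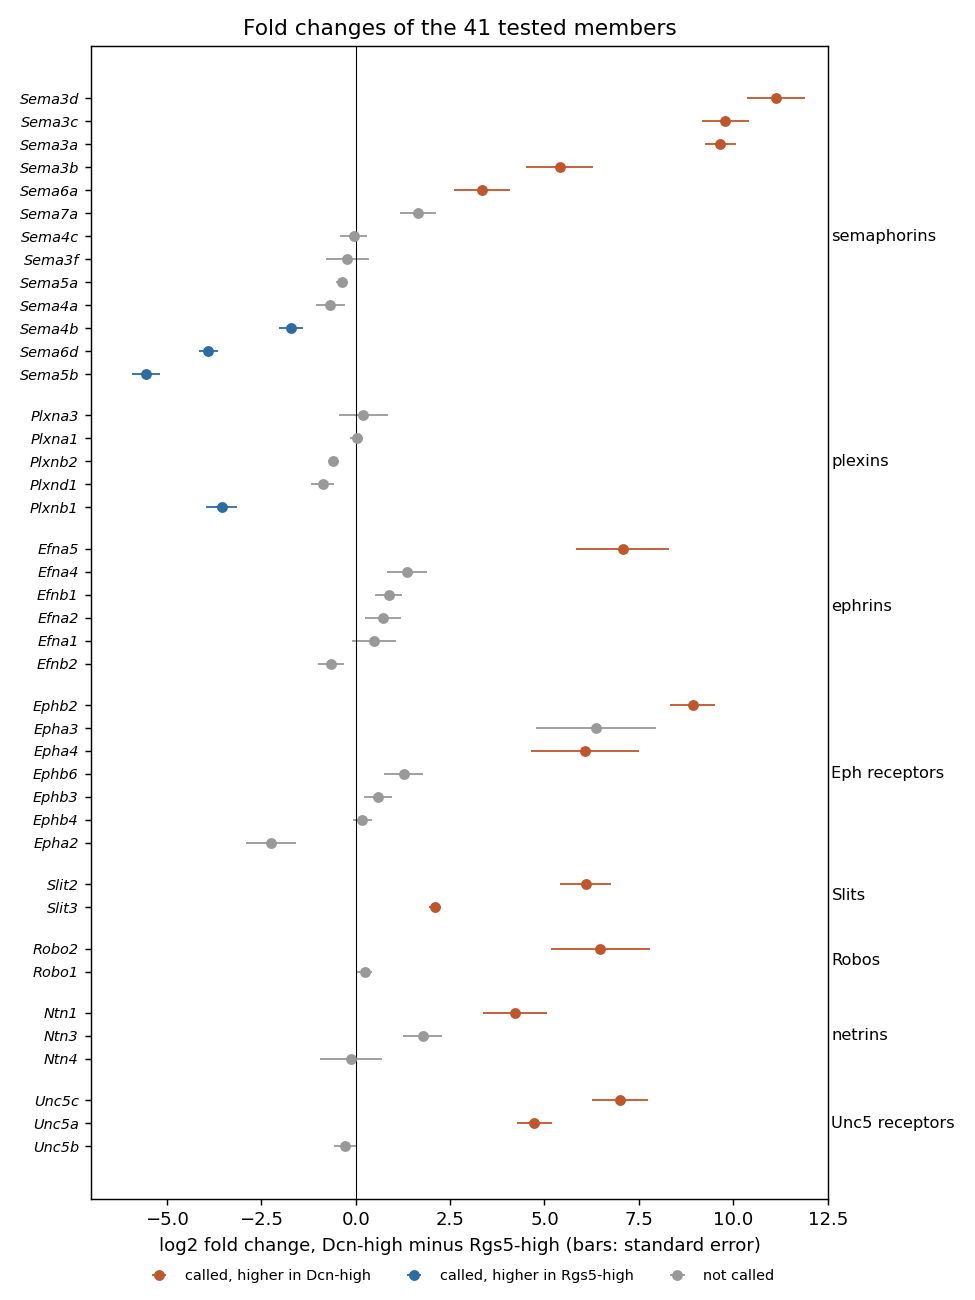
Log2 fold change (Dcn-high minus Rgs5-high, horizontal axis) of the 41 tested members by family, with the standard error of the edgeR fit as bars and colors for the call at an adjusted p of 0.05. The 14 members called higher in Dcn-high wells lie between 2.10 (Slit3) and 11.14 (Sema3d), the 4 called higher in Rgs5-high wells between -5.55 (Sema5b) and -1.71 (Sema4b), and the plexins other than Plxnb1 lie between -0.87 and 0.20.

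Among the ligands, 3 of the 5 tested class 3 semaphorins, which are secreted, had the largest fold changes. Sema3d had 1960 and 742 reads in the Dcn-high wells of tumors 1 and 2, or 11.7 and 5.04 RPKM, and 1 and 2 reads in the Rgs5-high wells. Sema3c had 463 and 570 reads, or 4.94 and 5.76 RPKM, against 1 and 2 reads. Both genes were thus almost absent from the larger class, although it held more reads in all. Per library read the ratio was 2137 for Sema3d (exact 95% interval 731 to 10371) and 817 for Sema3c (279 to 3969), intervals that cover counting error only, since Smart-seq2 reads are not independent molecules. Sema3a, the prototype collapsin that repels axons through neuropilin-1, averaged 10.4 and 7.35 RPKM in Dcn-high wells and 0.013 and 0.019 RPKM in Rgs5-high wells (log2 fold change 9.66 ± 0.41 SE, edgeR adjusted p = 0.000234).

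The genes differed in how widely they were read. Sema3a was read in 40.96% and 23.8% of the Dcn-high wells and Sema3d in 33.7% and 26.2%, but Sema3c in only 8.43% and 10.7%. Shares of wells with a read are at full depth unless called thinned, and the Dcn-high wells were deeper. A single well gave 63.9% of the Sema3c reads of the Dcn-high class in tumor 1 and 39.8% in tumor 2, so its mean rests on few cells. Sema3a and Sema3d were compared well by well. Sema3d was read in 32.4% of the wells with Sema3a and in 34.7% of those without it in tumor 1, and in 35% and 23.4% in tumor 2. Sema3b was lower in level but similar in direction, with 5.18 and 3.86 RPKM in Dcn-high wells against 0.19 and 0.092 RPKM. Sema3f, which binds neuropilin-2, was not called and had 0.93 and 1.31 RPKM in Dcn-high wells against 1.34 and 1.30 RPKM in Rgs5-high wells. Sema3e was read in 4 wells and Sema3g in 2.

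Sema3d, Sema3a and Sema3c lie on the same chromosome, in that order, at chr5:12383161-12588953, chr5:13124822-13603485 and chr5:17574816-17730268 (GRCm38.p6, RefSeq gene spans). Sema3e, read in 4 wells, lies between the latter 2 at chr5:14025276-14256689. To show what stands at the starts of the members with the most different levels, the RefSeq promoter windows (250 bases before to 50 after a start, build GRCm38.p6) of the 3 members with the largest fold change in each direction are given. Capitals mark matches on either strand to GGGCGG (a GC box) or CACGTG (an E-box). TATAAA and TGACTCA were also searched, and neither was found in these 6 windows.
Sema3d (chr5:12382916-12383215, plus strand): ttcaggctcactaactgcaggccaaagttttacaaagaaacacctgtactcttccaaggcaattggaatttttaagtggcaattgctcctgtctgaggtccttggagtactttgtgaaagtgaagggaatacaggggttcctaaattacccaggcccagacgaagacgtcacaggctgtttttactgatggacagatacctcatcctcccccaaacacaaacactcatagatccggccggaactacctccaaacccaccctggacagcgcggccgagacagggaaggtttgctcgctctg
Sema3c (chr5:17574566-17574865, plus strand): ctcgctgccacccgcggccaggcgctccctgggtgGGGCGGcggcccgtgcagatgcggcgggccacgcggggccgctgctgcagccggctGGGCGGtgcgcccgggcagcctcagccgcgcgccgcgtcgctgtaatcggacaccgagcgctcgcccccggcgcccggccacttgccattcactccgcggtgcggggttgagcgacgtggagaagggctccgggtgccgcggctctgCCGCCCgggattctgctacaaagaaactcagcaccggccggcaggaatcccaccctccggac
Sema3a (chr5:13396534-13396833, plus strand): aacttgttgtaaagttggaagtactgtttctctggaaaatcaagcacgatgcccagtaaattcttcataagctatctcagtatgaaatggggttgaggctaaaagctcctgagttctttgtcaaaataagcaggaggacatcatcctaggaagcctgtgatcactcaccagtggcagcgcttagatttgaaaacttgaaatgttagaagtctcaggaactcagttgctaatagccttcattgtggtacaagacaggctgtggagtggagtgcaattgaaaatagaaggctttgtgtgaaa
Sema5b (chr16:35541112-35541411, plus strand): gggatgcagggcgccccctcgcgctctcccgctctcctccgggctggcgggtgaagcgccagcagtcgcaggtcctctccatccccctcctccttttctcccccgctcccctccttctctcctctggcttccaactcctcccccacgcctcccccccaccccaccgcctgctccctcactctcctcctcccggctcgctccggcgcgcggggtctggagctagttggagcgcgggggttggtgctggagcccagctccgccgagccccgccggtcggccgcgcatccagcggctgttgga
Sema6d (chr2:124089719-124090018, plus strand): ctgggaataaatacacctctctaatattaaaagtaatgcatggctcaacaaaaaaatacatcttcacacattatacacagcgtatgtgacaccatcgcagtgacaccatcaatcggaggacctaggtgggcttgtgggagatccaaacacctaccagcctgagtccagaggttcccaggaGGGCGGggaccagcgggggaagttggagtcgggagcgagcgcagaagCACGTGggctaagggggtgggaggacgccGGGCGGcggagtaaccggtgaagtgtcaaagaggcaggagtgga
Plxnb1 (chr9:109095186-109095485, plus strand): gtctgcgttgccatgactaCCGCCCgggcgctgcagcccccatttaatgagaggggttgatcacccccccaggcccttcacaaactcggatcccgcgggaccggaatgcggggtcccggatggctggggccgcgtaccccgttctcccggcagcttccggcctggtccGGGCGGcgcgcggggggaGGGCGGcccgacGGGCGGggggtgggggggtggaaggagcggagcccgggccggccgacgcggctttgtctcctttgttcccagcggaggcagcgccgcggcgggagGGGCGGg

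GGGCGG was found in 3 of the 6 windows, those of Sema3c, Sema6d and Plxnb1, and in 35.7% of the 32851 RefSeq windows of the same length. Counting any window of a tested member, it was found for 6 of 11 called higher in Dcn-high wells and 3 of 4 called higher in Rgs5-high wells. It was also found for 17 of 21 that were not called. CACGTG was found in the Sema6d window and in 7.15% of all windows. The windows of Sema3d, Sema3a and Sema5b held none of the 4 motifs. Their base composition differed, with 41.3% G and C in Sema3a, 49.7% in Sema3d and 75.7% in Sema3c, against a median of 52.7% over all windows. The Sema6d window is the more upstream of the 2 starts listed. The start used lies at the first base of the RefSeq gene span for Sema3c and downstream of it for the other 5. The Sema3a window begins far inside its gene span, at chr5:13396534 for a span that begins at 13124822. The Plxnb1 window begins at chr9:109095186 for a span from 109093849, so neither window holds the first base of its span. The composition and lack of motifs given for Sema3a describe that inner start only. The match is a description of the letters only.

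The transmembrane semaphorins went both ways. Sema6d, a ligand of plexin-A1, averaged 45.8 and 50.5 RPKM in the Rgs5-high wells of tumors 1 and 2 and 1.92 and 3.52 RPKM in the Dcn-high wells. It was read in 83.3% and 85.2% of the Rgs5-high wells and in 22.9% and 16.7% of the Dcn-high wells, and in the former no single well gave more than 2.82% of its reads. The groups did not overlap between tumors, and the log2 fold change was -3.91 ± 0.26 SE (edgeR adjusted p = 0.000733). Sema6d was thus the most abundant member of the Rgs5-high wells on the RPKM scale, at a mean of 48.2 RPKM over the tumors, ahead of Plxnb2 at 32.4 RPKM, though that order was not tested.

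Sema5b, a transmembrane semaphorin with thrombospondin repeats, averaged 13.8 and 19.3 RPKM in Rgs5-high wells and 0.65 and 0.23 RPKM in Dcn-high wells (log2 fold change -5.55 ± 0.36 SE, edgeR adjusted p = 0.00072). Unlike Sema6d it was read in only part of the Rgs5-high wells, 50.2% and 48.5%, at a median of 23.2 and 27.4 RPKM where it was read. In tumor 1, 1 well gave 76.9% of the 39 Sema5b reads of the Dcn-high class. Sema6d was read in 87.6% and 90.4% of the Rgs5-high wells with Sema5b and in 78.9% and 80.3% of those without, while the wells with Sema5b were also deeper, with medians of 214618 and 199707 reads against 191098 and 172257. Sema4b averaged 7.59 and 7.68 RPKM in Rgs5-high wells against 2.88 and 1.38 RPKM (log2 fold change -1.71 ± 0.31 SE, edgeR adjusted p = 0.0185), and its call was lost when each well was scaled to the same total (adjusted p = 0.0762) and with ERCC totals (adjusted p = 0.063), in a range of 3.64e-05 to 0.0762 over the alternatives.

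Sema5a, the paralog of Sema5b, did not share its pattern. It averaged 18.2 and 17.3 RPKM in Dcn-high wells and 24.2 and 26.6 RPKM in Rgs5-high wells (log2 fold change -0.36 ± 0.16 SE, edgeR adjusted p = 0.202), and was read in 78.3% and 83.3% against 77.8% and 78.1% of wells. Sema6a, the paralog of Sema6d, went the other way, with 2.45 and 2.32 RPKM in Dcn-high wells against 0.33 and 0.22 RPKM in Rgs5-high wells. In both paralog pairs, therefore, 1 member was called higher in Rgs5-high wells and the other was not, though the difference between paralogs was not tested. The call of Sema6a was lost without the developmental wells (edgeR adjusted p = 0.0559, in a range of 5.23e-05 to 0.0559). Sema4c was close to equal, with 3.56 and 2.72 RPKM against 3.996 and 3.34 RPKM (log2 fold change -0.05 ± 0.37 SE, edgeR adjusted p = 0.948). Sema7a, a membrane-anchored semaphorin that binds integrins, had 7.30 and 4.68 RPKM against 1.17 and 1.92 RPKM and was not called (edgeR adjusted p = 0.077).

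**Figure D2:**
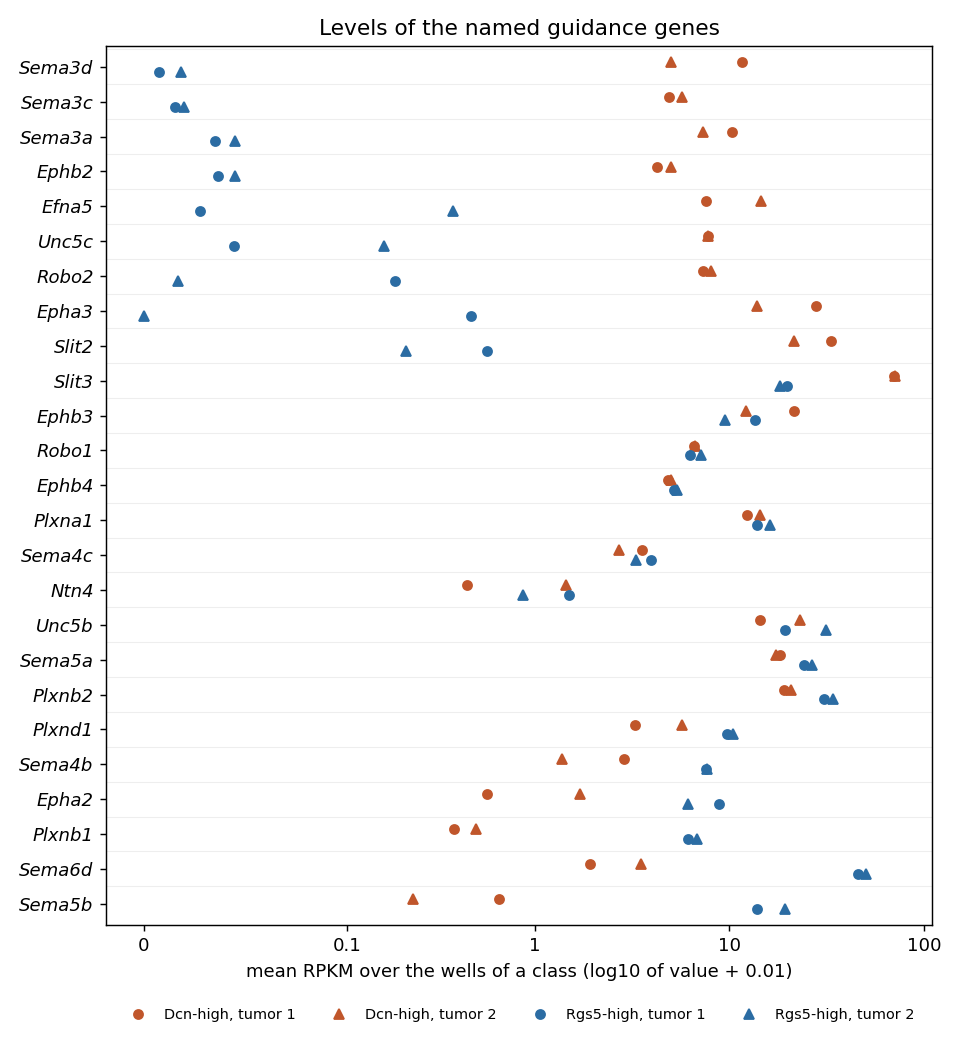
Mean RPKM over the wells of each class (log axis, value + 0.01) of the 25 named members, with circles for tumor 1 and triangles for tumor 2, ordered by fold change. The levels of both tumors in Dcn-high wells (orange) lie above those in Rgs5-high wells (blue) from Sema3d to Ephb3 and below them from Sema5a to Sema5b, except that for Ephb3 the Dcn-high mean of tumor 2 (12.2 RPKM) lies under the Rgs5-high mean of tumor 1 (13.5 RPKM).

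Plexins are the receptors of semaphorins, and 1 of the 5 tested was called. Plxnb2 was the most abundant plexin on the RPKM scale in both classes, with 19.1 and 20.8 RPKM in Dcn-high wells and 30.8 and 34.1 RPKM in Rgs5-high wells. The tumors did not overlap and differed by less than the classes did, but the test missed the threshold (log2 fold change -0.59 ± 0.15 SE, edgeR adjusted p = 0.0532), and of the 13 alternatives 2 called it, the DESeq2 Wald test (adjusted p = 0.00275) and edgeR without the filter (adjusted p = 0.0482). With ERCC totals the sign turned to 0.10 (edgeR adjusted p = 0.657). Plxna1, which pairs with class 3 and class 6 semaphorins, was nearly equal at 12.3 and 14.4 RPKM against 14.0 and 16.2 RPKM (log2 fold change 0.03 ± 0.17 SE, edgeR adjusted p = 0.946). The edgeR fold change, taken after scaling of the libraries, and that of the mean RPKM lay on opposite sides of 0. An antisense gene covers 10.7% of the exon bases of Plxna1, and an unstranded protocol cannot assign those reads. Plxnd1, an endothelial receptor for Sema3e, had 3.30 and 5.70 RPKM in Dcn-high wells against 9.78 and 10.5 RPKM in Rgs5-high wells and was not called (log2 fold change -0.87 ± 0.30 SE, edgeR adjusted p = 0.122).

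Plxnb1, the receptor of Sema4d, was that plexin. It averaged 6.15 and 6.84 RPKM in Rgs5-high wells and 0.38 and 0.50 RPKM in Dcn-high wells (log2 fold change -3.55 ± 0.40 SE, edgeR adjusted p = 0.00383). It was read in 42.4% and 45.6% of the Rgs5-high wells and in 7.23% and 15.5% of the Dcn-high wells. Its ligand Sema4d was read in 2 and 6 Rgs5-high wells and in 0 and 4 Dcn-high wells.

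Of the Slits, large secreted ligands of the Robos, Slit2 and Slit3 were higher in Dcn-high wells. Slit3 was the most abundant member of the Dcn-high wells on the RPKM scale, at 70.2 and 70.7 RPKM in the Dcn-high wells of tumors 1 and 2 against 19.95 and 18.2 RPKM in the Rgs5-high wells (log2 fold change 2.10 ± 0.16 SE, edgeR adjusted p = 0.00114). It was read in 97.6% and 89.3% of Dcn-high wells and in 69.3% and 60.3% of Rgs5-high wells, so the gene was present in both classes at different levels. Slit2 was closer to a marker of 1 class, with 33.4 and 21.5 RPKM in Dcn-high wells against 0.56 and 0.21 RPKM (log2 fold change 6.09 ± 0.67 SE, edgeR adjusted p = 0.00339). Slit2 was still read in 17.1% and 13.5% of Rgs5-high wells, or 7.89% and 5.90% of those with at least 50000 reads once thinned to that number, at a median of 0.61 and 0.55 RPKM in those wells against 26.2 and 21.2 RPKM in the Dcn-high wells that held it. Traces in the other class differed between genes. Rgs5, which set the classes, was read in 94.0% and 85.7% of the Dcn-high wells, at a mean of 8.17 and 8.74 RPKM against 5882 and 5346 RPKM in the Rgs5-high wells. Sema3d and Sema3c, in contrast, were each read in 3 of the 494 Rgs5-high wells. The source of low reads was not tested. Slit1 had 0.17 and 2.13 RPKM in Dcn-high wells and 0.052 and 0.23 RPKM in Rgs5-high wells.

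The Robo receptors were unlike each other. Robo1 had 6.58 and 6.72 RPKM in Dcn-high wells and 6.28 and 7.16 RPKM in Rgs5-high wells, with overlapping tumors (log2 fold change 0.24 ± 0.19 SE, edgeR adjusted p = 0.481). Robo2 had 7.39 and 8.04 RPKM against 0.18 and 0.0050 RPKM (log2 fold change 6.48 ± 1.31 SE, edgeR adjusted p = 0.0261). It was read in 60.2% and 46.4% of Dcn-high wells and in 7 and 2 Rgs5-high wells. Its call was lost at a class margin of 1 log2 unit (adjusted p = 0.0724) and with classes from the marker panels (adjusted p = 0.0623), in a range of 0.000103 to 0.0724. In tumor 1, 1 well gave 40.2% of the 97 Robo2 reads of the Rgs5-high class. Reads of a Slit (Slit2 or Slit3) and of a Robo (Robo1 or Robo2) were found together in 84.3% and 71.4% of Dcn-high wells and in 35.4% and 32.1% of Rgs5-high wells.

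**Figure D3:**
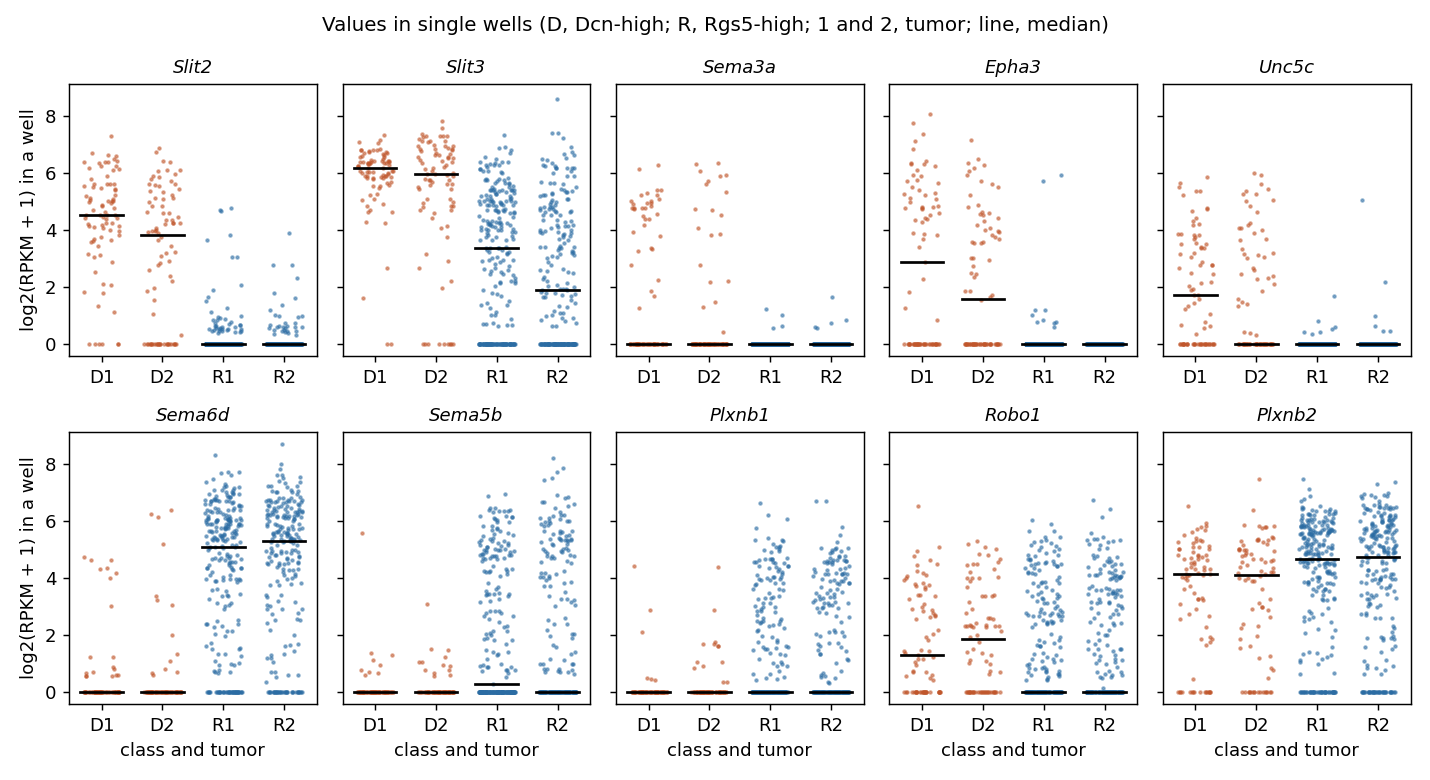
Values of 10 members in single wells (log2(RPKM + 1), vertical axis) by class and tumor, each point a well and each line the median. Slit2, Sema3a, Epha3 and Unc5c have few Rgs5-high wells above 2, Sema6d, Sema5b and Plxnb1 have few Dcn-high wells above 2, and Robo1 and Plxnb2 have wells above 4 in both classes.

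Ephrins are ligands and also receptors of a reverse signal. Efna5, linked to the membrane by a lipid anchor, was the ephrin that was called, with 7.66 and 14.6 RPKM in Dcn-high wells against 0.0095 and 0.38 RPKM in Rgs5-high wells (log2 fold change 7.07 ± 1.23 SE, edgeR adjusted p = 0.0162). It was read in 45.8% and 57.1% of Dcn-high wells and in 0.78% and 4.22% of Rgs5-high wells. The other 5 tested ephrins (Efna1, Efna2, Efna4, Efnb1 and Efnb2) had log2 fold changes between -0.66 and 1.36. Efnb2, which marks arterial vessels and their mural cells, had 2.07 and 3.34 RPKM in Dcn-high wells against 4.43 and 5.46 RPKM and was not called (edgeR adjusted p = 0.268).

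Among the Eph receptors, Ephb2 averaged 4.25 and 5.04 RPKM in Dcn-high wells against 0.014 and 0.019 RPKM (log2 fold change 8.92 ± 0.59 SE, edgeR adjusted p = 0.000729). It was read in 55.4% and 46.4% of Dcn-high wells and in 2 and 2 Rgs5-high wells. Epha3, a receptor of Efna5, was the most abundant Eph receptor of the Dcn-high wells on the RPKM scale in both tumors, with 27.8 and 13.9 RPKM. In the Rgs5-high wells it had 159 reads in tumor 1 (0.46 RPKM, 60.4% of them from 1 well) and 0 reads in tumor 2. The tumors did not overlap, but the log2 fold change of 6.37 ± 1.59 SE missed the threshold (edgeR adjusted p = 0.0506). With the tumor as a replicate block it was called (adjusted p = 0.0182), and it was called in 7 of the 13 alternatives, with adjusted p from 0.00012 to 0.115. Epha4 showed the same layout, with 9.59 and 9.68 RPKM against 0.24 and 0.0020 RPKM, and was called (edgeR adjusted p = 0.0429), except without the cell cycle wells (adjusted p = 0.0563, in a range of 0.000149 to 0.0563).

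Epha2 was the Eph receptor with the largest difference in the other direction. It had 8.94 and 6.12 RPKM in Rgs5-high wells and 0.57 and 1.70 RPKM in Dcn-high wells, and was read in 29.6% and 28.3% against 1.20% and 10.7% of wells. The tumors did not overlap, yet the test missed the threshold (log2 fold change -2.24 ± 0.66 SE, edgeR adjusted p = 0.0793), and 4 of 13 alternatives called it. Ephb3 and Ephb4, receptors of the B-type ephrins, were read in both classes. Ephb3 had 21.6 and 12.2 RPKM against 13.5 and 9.51 RPKM (log2 fold change 0.59 ± 0.37 SE, edgeR adjusted p = 0.356), and Ephb4 had 4.89 and 5.05 RPKM against 5.21 and 5.41 RPKM (log2 fold change 0.18 ± 0.25 SE, edgeR adjusted p = 0.706). For Ephb4, the edgeR fold change, which rests on scaled libraries, and the mean RPKM thus pointed in opposite directions. The scaling factors were 0.898 and 0.918 for the Dcn-high libraries and 1.09 and 1.11 for the Rgs5-high libraries. A test that misses the threshold does not show equal levels.

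Several members that were low in the Rgs5-high wells were higher there in tumor 1 than in tumor 2. Epha3 had 159 and 0 reads, Epha4 115 and 1, Robo2 97 and 2, and Slit2 381 and 101. The 10 matrix markers also summed higher in the Rgs5-high wells of tumor 1, at 47.4 RPKM against 29.0 RPKM in tumor 2, and the part of this difference in the members was not tested. Efna5 went the other way, with 2 and 50 reads, as did Unc5c, with 15 and 62. Of the 14 members called higher in Dcn-high wells, a Dcn-high well held a median of 6 in each tumor and an Rgs5-high well a median of 1, and 2 Rgs5-high wells in tumor 1 and 0 in tumor 2 held 5 or more. These 14 were called from the same wells, so the difference in medians follows from that choice and is no further support. The counts are at full depth, and the Dcn-high wells were deeper.

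Netrins are secreted, laminin-related cues. Ntn1 averaged 3.57 and 7.31 RPKM in Dcn-high wells against 0.36 and 0.14 RPKM and was called, being read in 19.3% and 33.3% against 1.17% and 2.53% of wells. Ntn3 was not called. Ntn4, a netrin of basement membranes, was low in both classes, at 0.44 and 1.46 RPKM against 1.495 and 0.87 RPKM, and the difference had opposite signs in the tumors (log2 fold change -0.13 ± 0.82 SE, edgeR adjusted p = 0.945).

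The Unc5 receptors bind netrins and, in part, other ligands. Unc5c had 7.83 and 7.78 RPKM in Dcn-high wells against 0.019 and 0.16 RPKM in Rgs5-high wells (log2 fold change 7.01 ± 0.74 SE, edgeR adjusted p = 0.00303). In tumor 2, 1 well gave 87.1% of the 62 Unc5c reads of the Rgs5-high class. Unc5a was lower but similar in layout, with 3.96 and 4.40 RPKM against 0.12 and 0.23 RPKM. Unc5b, known from endothelium, was read widely in both classes, with 14.4 and 23.2 RPKM in Dcn-high wells and 19.4 and 31.5 RPKM in Rgs5-high wells (log2 fold change -0.29 ± 0.30 SE, edgeR adjusted p = 0.595). In Unc5b tumor 2 was the higher in each class, by more than the classes differed within a tumor. Each family of receptors thus held a member read in both classes (Robo1, Unc5b, Plxna1, Ephb3).

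**Figure D4:**
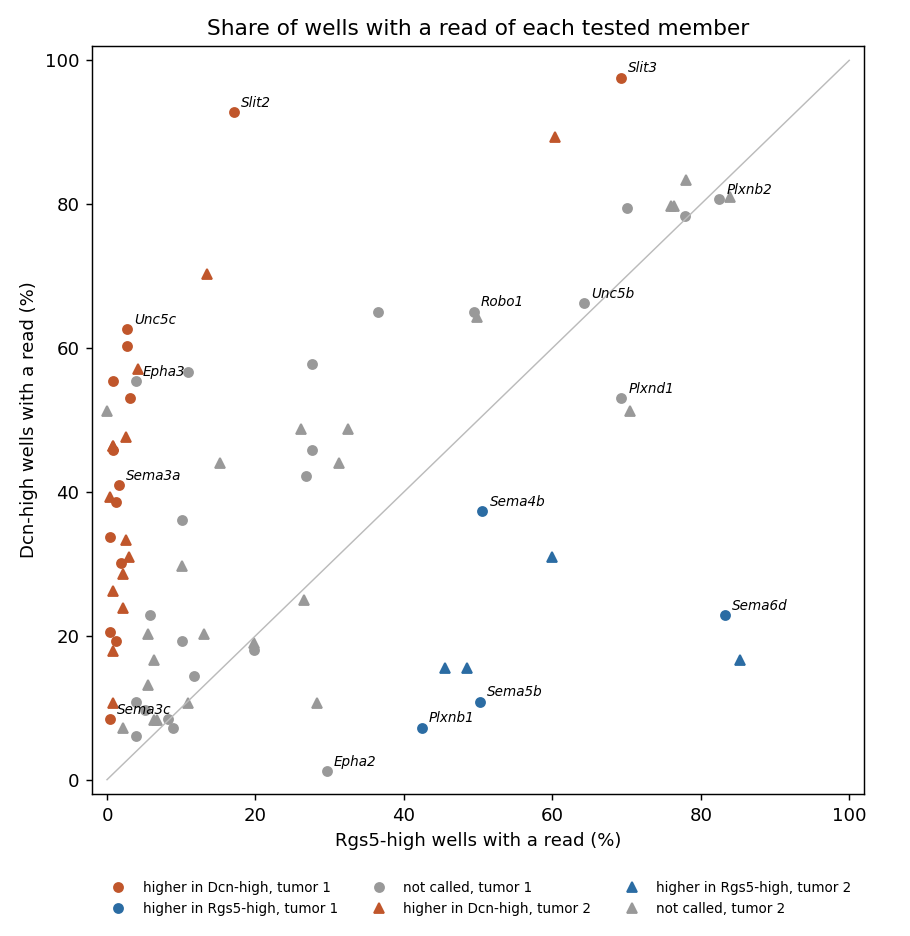
Share of Rgs5-high wells (horizontal) and of Dcn-high wells (vertical) with a read of each tested member, in percent, with circles for tumor 1 and triangles for tumor 2, colors for the call, and the diagonal marking equal shares. The members called higher in Dcn-high wells other than Slit2 and Slit3 lie at the left edge, at no more than 4.22% of Rgs5-high wells, while Sema6d, Sema5b, Plxnb1 and Sema4b lie under the diagonal.

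Ligands and receptors known to bind each other were read in the same wells to different extents. Sema6d and Plxna1 were both read in 19.3% and 14.3% of Dcn-high wells and in 59.1% and 66.2% of Rgs5-high wells, where Plxna1 alone was read in 70.0% and 76.4%. Ntn1 with Unc5b or Unc5c was read in 16.9% and 29.8% of Dcn-high wells and in 2 and 3 Rgs5-high wells. Efna5 with Epha3 or Epha4 was read in 34.9% and 38.1% of Dcn-high wells and in 0 of 257 and 0 of 237 Rgs5-high wells, whose exact 95% intervals end at 1.43% and 1.54%. Such intervals cover counting error over wells only and set no limit on expression. In these Rgs5-high wells Efna5 alone was read in 0.78% and 4.22% and Epha3 or Epha4 in 6.61% and 0.42%, so few wells could hold both. Efnb1 or Efnb2 with Ephb3 or Ephb4 was read in 55.4% and 42.9% against 23.3% and 22.8% of wells. These shares are not thinned, and the Dcn-high wells were deeper. A read of both genes in a well says nothing of contact or signaling.

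**Figure D5:**
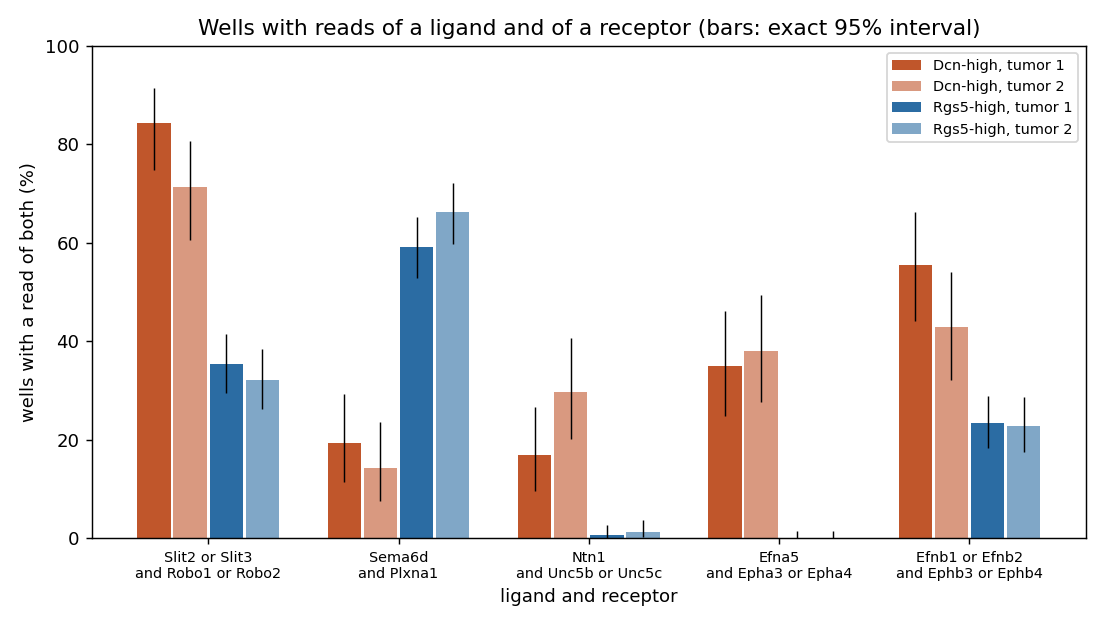
Percent of wells with a read of both a ligand and a receptor, by class and tumor, with exact 95% binomial intervals that cover counting error only. The Slit and Robo, Ntn1 and Unc5, and Efna5 and Epha pairs are found more often in Dcn-high wells, and the Sema6d and Plxna1 pair in 59.1% and 66.2% of Rgs5-high wells against 19.3% and 14.3% of Dcn-high wells.

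Other genes of these pathways were taken from 3 lists. Of 18 co-receptors and other receptors, 9 were tested, 3 of them higher in Dcn-high wells and 2 in Rgs5-high wells, with a median fold change of -0.23. Nrp1, the neuropilin of Sema3a, was high in both classes at 58.8 and 55.4 RPKM against 70.7 and 72.6 RPKM and was not called (edgeR adjusted p = 0.42). Mcam, a cell adhesion molecule of vessels, had 41.4 and 48.9 RPKM in Dcn-high wells against 666 and 694 RPKM in Rgs5-high wells (log2 fold change -3.62 ± 0.17 SE, edgeR adjusted p = 0.000335). Itga1, an integrin subunit for collagen and Sema7a, had 33.3 and 38.6 RPKM against 172 and 195 RPKM. Mcam is a gene that the study named for its vascular cells on these samples, so it is not independent evidence. Lgr5, an R-spondin receptor that is not a guidance receptor, had 8.53 and 9.38 RPKM against 0.59 and 0.65 RPKM (log2 fold change 4.33 ± 0.35 SE, edgeR adjusted p = 0.00133). Dcc, a netrin receptor, had no read in either class. Neo1, the gene of neogenin, was called higher in Dcn-high wells, at a mean of 12.4 RPKM against 4.76 RPKM (log2 fold change 1.78 ± 0.31 SE, edgeR adjusted p = 0.0156).

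Of 18 other guidance ligands and their modulators, 11 were tested, 4 higher in Dcn-high wells and 0 in Rgs5-high wells, with a median fold change of 1.10. Flrt2, a transmembrane ligand of Unc5 receptors, had 9.58 and 12.9 RPKM in Dcn-high wells against 0.12 and 0.0048 RPKM (log2 fold change 6.98 ± 1.27 SE, edgeR adjusted p = 0.0184). Gpc1, a glypican that binds Slits, had 98.8 and 98.0 RPKM against 17.5 and 18.6 RPKM, and Cxcl12, a chemokine, 176 and 73.7 RPKM against 30.3 and 11.8 RPKM. Of 33 cytoplasmic effectors, 25 were tested, 5 higher in Dcn-high wells and 4 in Rgs5-high wells, with a median of -0.15. Dpysl3, a collapsin response mediator, had 44.3 and 62.0 RPKM in Dcn-high wells against 3.09 and 1.06 RPKM. Dpysl2, of the same family, was called in the other direction, at a mean of 61.9 RPKM in Dcn-high wells against 154 RPKM (log2 fold change -1.15 ± 0.15 SE, edgeR adjusted p = 0.00635). Pak1, a kinase downstream of Rac, had 9.75 and 10.3 RPKM against 0.54 and 1.10 RPKM, and Vav3 had 180 and 143 reads in Dcn-high wells against 0 and 5 in Rgs5-high wells. The call of Cxcl12 was lost when each well was scaled to the same total (edgeR adjusted p = 0.0504, in a range of 2.76e-06 to 0.0504). The shares called, 55.6%, 36.0% and 36.4% for co-receptors, effectors and other ligands, stand beside 16.5% of all genes, and no list was tested as a set. Flrt2, Vav3 and Lgr5 averaged 0.062, 0.023 and 0.62 RPKM in the Rgs5-high wells, so called genes of these lists also passed the filter through the class in which they were high. The shares are therefore no measure of an excess. With the tumor as a replicate block, 7, 10 and 6 genes of these lists were called in place of 5, 9 and 4.

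The 66 wells of neither class and the 34 wells that carried developmental markers (10 and 24 in the tumors) were described without a test. Of the developmental wells 23 were of neither class, while 2 and 7 were also Dcn-high and 0 and 2 Rgs5-high, so the values compared here share some wells. Efna1 reached 49.2 and 22.9 RPKM in the developmental wells against 5.48 and 2.37 RPKM in Dcn-high wells and 3.39 and 2.73 RPKM in Rgs5-high wells. Efna5 had 28.5 and 24.6 RPKM there, above both classes. Sema3c had 32.4 and 2.23 RPKM, so the tumors were far apart. Slit2 had 0.13 and 0.064 RPKM and Slit3 0.26 and 7.96 RPKM, under the Dcn-high wells in both tumors. The summed epithelial markers of the wells of neither class were 489 and 200.3 RPKM, against 20.03 and 23.4 RPKM in Dcn-high wells and 5.55 and 38.9 RPKM in Rgs5-high wells, and the part of other cells in these levels was not tested.

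In the 46 wells that carried cell cycle markers (25 and 21 in the tumors, 40 of them Rgs5-high), Sema6d had 33.3 and 52.5 RPKM, Plxnb2 32.5 and 39.6 RPKM and Unc5b 30.4 and 22.98 RPKM. Slit2 had 2.11 and 0.74 RPKM and Epha3 2.11 and 0.34 RPKM. Sema5b had 7.66 and 5.88 RPKM, lower than the 13.8 and 19.3 RPKM of the whole Rgs5-high class, a difference that was not tested. Leaving these wells out of the comparison gave 13 members higher in Dcn-high wells and 4 higher in Rgs5-high wells. Over all 11715 genes, 1086 were then called higher in Dcn-high wells and 701 higher in Rgs5-high wells, against 1147 and 786 with these wells kept.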

How the data were processed

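The authors aligned single-end reads of 43 bp to mm10 with STAR (2.3.0) and counted them over RefSeq genes. The authors deposited a table of whole-number read counts and a table of RPKM from rpkmforgenes for 768 wells. The RPKM totals include ERCC reads. Wells with at least 10000 non-ERCC reads were kept. Counts were summed per tumor and class (4 libraries of 19823531 to 53764150 reads) and tested with edgeR 4.0.16 (quasi-likelihood, TMM, no block, Benjamini-Hochberg over 11715 genes with mean RPKM of at least 1). SE is the fold change divided by the square root of F. DESeq2 1.42.0 and limma 3.58.1 were alternatives, and scripts were tested on simulated data. Both libraries of a tumor come from 1 animal, and their deviations correlated at 0.1374 over 11700 genes. Wells are not replicates, and p-values rest on 2 tumors. Doublets were gated out at the sort, and none were called here. In all, 0 pairs of wells were identical.

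The members, classes and lists were chosen with earlier results of these data known. Members named are the 12 with the highest mean RPKM, up to 8 called in each direction with the largest fold changes, the 4 closest to 0 at 1 RPKM or more in a class, uncalled members with a fold change over 2 log2 units, and members with no read. Lists give their 3 largest called genes. Other called or lower members, co-receptors and effectors named in passing were chosen after their values were seen. Gene spans and promoters are from RefSeq (GRCm38.p6), where 67 of 67 symbols matched, and exon overlaps from GENCODE of the same build. Shares of wells with a read were also computed with wells thinned to 50000 reads (the expected value) and at an RPKM of at least 1.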

Additional observations from a re-analysis of the deposited data

Results flagged for a closer look

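In 4 of the 41 tested members the difference between Dcn-high and Rgs5-high wells had opposite signs in the tumors, and the difference between tumors was not tested. Ntn4 gave -1.51 in tumor 1 and 0.94 in tumor 2 on the log2 scale, from 27 and 76 reads in the Dcn-high wells. Sema3f gave -0.58 and 0.11, Sema4c 0.16 and -0.31, and Plxna3 -0.091 and 0.35. None of these 4 was called by edgeR, and no alternative called them in the direction of the reported fold change. The 41 wells left out for depth held 81 reads of the members, in 27 wells and over 22 members, 16 of them of Sema5a.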

How the results depend on the processing

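The count of 18 called members (14 higher in Dcn-high wells, 4 in Rgs5-high wells) fell to 6 (4 and 2) at an adjusted p of 0.001, and with ERCC totals as the library size, chosen after seeing the data, 24 were higher in Dcn-high wells, as were 3531 of all 11715 genes. Other settings gave 17 to 27 calls in all, while the calls over all genes tested went from 1752 to 3493. The count of 62 members read became 41 at a mean RPKM of at least 1 and 28 at a read in 10% of the wells of both tumors. With the tumor as a replicate block 19 members were called, and it changed no other call of a member than that of Epha3. ERCC totals turned the sign of Plxnb2 to 0.10, Unc5b to 0.38, Sema5a to 0.32, Sema4c to 0.63 and Ntn4 to 0.56, and limma on mean log2(RPKM + 1) that of Sema4c to 0.14 and Ntn4 to 0.052. Plxna1 turned to -0.011 at a class margin of 5 log2 units, -0.014 with marker panels, -0.042 without cell cycle wells and -0.025 without the filter. None of these reversed values passed the threshold. Fold changes from 1 tumor alone are values with no test. With 2 tumors of 1 model, on 1 plate each, the tests carry the spread between these animals only. Of the shares of wells with a read of named members, thinning to 50000 reads or asking for at least 1 RPKM moved 56 by more than the spread between tumors and left 44 within it, so these shares are tied to depth and to the level that counts as read. Many members were read in few wells, so their means rest on few cells, and depth limits what can be said of members near 0.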
